A study of Homo sapiens with 12 samples.

Results

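The mitochondrial ribosomal protein genes are the protein-coding genes of GENCODE 29 whose symbol is MRPL or MRPS followed by a digit. There were 78 of them among 43481 genes with transcripts in the files, 49 with a large subunit symbol (MRPL) and 29 with a small subunit symbol (MRPS). All 78 passed the filter on low counts and stood among the 15263 genes tested. The lowest expected count of any of them in any library was 177.

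Mitochondrial ribosomes translate the few messages of the mitochondrial genome, which encode subunits of the respiratory chain and of ATP synthase. Their ribosomal RNAs come from mitochondrial DNA, whereas all of their proteins are encoded in the nucleus, made in the cytosol and imported. The large subunit catalyses peptide bond formation and the small subunit decodes the message, and many mammalian mitochondrial ribosomal proteins have no bacterial counterpart.

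The data are 12 libraries of polyadenylated RNA from RPE-1, a human line of retinal pigment epithelial origin, in 4 groups of 3. All cells had been kept for 24 h without serum (FCS) and glucose. The DMA group was then refed for 4 h with medium of 10% FCS and 5 g/l glucose that also held 100 µM DMA, dimethyl amiloride, an inhibitor of sodium-proton exchange. The C646 group received the same medium for 4 h with 10 µM C646, an inhibitor of the histone acetyltransferases p300 and CBP. The solvent group received the medium with DMSO alone, and the starved group was not refed. Every group is of a single cell line, and the labels do not state whether libraries 1 to 3 of a group came from separate cultures, so p-values measure only the spread between these libraries. In bulk RNA, fewer cells and less RNA per cell cannot be told apart.

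The libraries held 14910516 to 28968510 expected counts. Spike-in sequences took 0.527% to 1.28% of them and messages of the mitochondrial genome took 1.67% to 4.14%. Of the retinal pigment epithelium markers, RPE65, RLBP1, TYR and TTR lay at 0 to 0.503 TPM in every library, BEST1, LRAT and PMEL at 0.349 to 3.14 TPM, OTX2 at 4.69 to 16.0 TPM, MITF at 6.28 to 23.1 TPM and RDH5 at 6.52 to 35.7 TPM. Of the epithelial markers, KRT8 and KRT18 lay between 264 and 756 TPM and CDH2 between 95.5 and 139 TPM, whereas KRT19, CDH1 and EPCAM reached at most 0.472 TPM. Of the mesenchymal markers, VIM lay between 3359 and 5420 TPM, THY1 between 56.6 and 249 TPM and PDGFRB between 4.59 and 18.4 TPM, while COL1A1 reached 5.43 TPM and COL1A2 and COL3A1 at most 0.208 TPM. The markers PTPRC, CD3E and HBB of blood cells and PECAM1, CDH5 and VWF of endothelium reached at most 0.552 TPM, and CD68, a lysosomal protein, reached 107 TPM. Among the solvent libraries, number 1 differed most from its group.

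The promoters of the members are shown first, because motifs near the start of the gene are a feature that the choice by symbol did not use. RefSeq on GRCh38.p14 gave a window of 250 bases before to 50 bases after the start for 69 of the 78 members. Each motif was searched on both strands, and none of these matches says that a factor is bound. The ETS site CCGGAAG occurred in 29 of the 69 windows (42.0%), against 10.7% of all 27305 windows of the table and 14.2% of those of protein-coding genes. The YY1 site AAGATGG occurred in 23 (33.3%), against 6.06% of all windows and 6.40% of the protein-coding ones. One or both of these sites lay in 43 windows (62.3%), against 15.9% of all windows. The combined share in protein-coding windows was not counted. For each site alone, it was above that of all windows.

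The YY1 site often lay just after the start. In 16 of the 69 windows (23.2%) it lay after the start, in each case on the strand of the gene, and its first base fell between positions 7 and 36 of the transcribed part. The share of all windows with such a site was 1.79%, and that of protein-coding windows 2.58%. The letters of this site hold an ATG. The palindromic NRF1 site occurred in 8 members (11.6%, against 6.28% of all and 8.58% of protein-coding windows). The GC box GGGCGG occurred in 42 (60.9%, against 44.6% of all and 58.5% of protein-coding windows), a share close to that of protein-coding genes. The E-box CACGTG occurred in 6 (8.70%, against 7.43% and 8.88%) and the CCAAT box CCAAT in 20 members, against 35.7% and 36.4%. The amino acid response element TGATGNAA occurred in 1 (1.45%, against 3.67% and 2.53%). A heat shock element, GAANNTTC, was added to the search after the values had been seen, and it occurred in 6 (8.70%, against 6.87% and 5.56%). Motif matches may overlap one another.

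These promoters show the range of sites beside the values that follow, and capitals mark an ETS, YY1, NRF1 or heat shock element match. MRPL16 has an ETS site whose first base lies 6 bases before the start (chr11:59810729-59811028, minus strand). MRPL18 holds a heat shock element that begins at position 15 after the start (chr6:159789562-159789861, plus strand). MRPL36 has an NRF1 site beginning 110 bases and a YY1 site beginning 34 bases before the start (chr5:1799788-1800087, minus strand). MRPS7 (chr17:75261629-75261928, plus strand) and MRPS27 (chr5:72320191-72320490, minus strand) both carry the YY1 site on the gene's strand after the start, at positions 20 and 17, and they changed in opposite directions on refeeding.
MRPL16: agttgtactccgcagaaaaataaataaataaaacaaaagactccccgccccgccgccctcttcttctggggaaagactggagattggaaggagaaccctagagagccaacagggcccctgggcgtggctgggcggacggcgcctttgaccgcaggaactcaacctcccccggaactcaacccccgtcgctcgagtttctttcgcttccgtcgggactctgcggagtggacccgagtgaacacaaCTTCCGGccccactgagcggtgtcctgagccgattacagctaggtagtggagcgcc
MRPL18: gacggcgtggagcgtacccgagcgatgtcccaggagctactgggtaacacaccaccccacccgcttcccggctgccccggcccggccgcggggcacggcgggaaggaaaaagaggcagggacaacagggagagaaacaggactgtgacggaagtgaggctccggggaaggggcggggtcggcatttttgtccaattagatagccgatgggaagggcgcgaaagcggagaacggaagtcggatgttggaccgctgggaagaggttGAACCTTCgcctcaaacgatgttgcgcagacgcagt
MRPL36: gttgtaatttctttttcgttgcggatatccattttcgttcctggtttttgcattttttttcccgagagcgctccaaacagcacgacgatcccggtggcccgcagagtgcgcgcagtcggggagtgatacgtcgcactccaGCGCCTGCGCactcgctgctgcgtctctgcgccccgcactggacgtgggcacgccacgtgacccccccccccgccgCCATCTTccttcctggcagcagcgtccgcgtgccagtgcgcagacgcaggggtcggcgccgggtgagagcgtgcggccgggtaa
MRPS7: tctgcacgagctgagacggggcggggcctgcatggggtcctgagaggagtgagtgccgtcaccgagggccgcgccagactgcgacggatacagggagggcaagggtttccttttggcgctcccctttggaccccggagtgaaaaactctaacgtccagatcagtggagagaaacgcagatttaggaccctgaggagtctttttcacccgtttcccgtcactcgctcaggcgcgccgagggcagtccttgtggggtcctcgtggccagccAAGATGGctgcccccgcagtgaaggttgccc
MRPS27: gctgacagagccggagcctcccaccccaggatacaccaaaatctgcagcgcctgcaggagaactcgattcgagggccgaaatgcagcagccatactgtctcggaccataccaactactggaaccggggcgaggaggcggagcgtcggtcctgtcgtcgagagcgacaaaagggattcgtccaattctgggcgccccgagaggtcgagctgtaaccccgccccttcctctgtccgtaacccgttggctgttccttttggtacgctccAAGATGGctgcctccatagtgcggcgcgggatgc

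The members were expressed over a 29.9-fold range of levels. Mean TPM over the 12 libraries, which corrects for transcript length, had a median of 62.4, and 68 of the 78 members lay between 30 and 150 TPM. MRPL51 was the most abundant with 341 TPM, followed by MRPL33 with 234, MRPL52 with 190, MRPS24 with 153 and MRPL18 with 138 TPM. MRPL50 with 11.4, MRPL57 with 14.6, MRPS31 with 17.3, MRPL41 with 23.6 and MRPS17 with 26.2 TPM were the least abundant. MRPL33 is among the smallest proteins of the large subunit, while MRPL50 and MRPL51 are proteins without bacterial counterparts. Over 20% of the exonic sequence of MRPL51, MRPL33, MRPS24 and MRPS17 overlaps or recurs in another gene, so their levels are uncertain. For MRPL51 the overlap is on the opposite strand.

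Summed over the members, the refed groups had the higher levels. The 78 genes together made up 5827 to 6263 TPM in DMA libraries, 5613 to 5799 TPM in C646 libraries, 5928 to 6218 TPM in solvent libraries and 4978 to 5331 TPM in starved libraries. Each refed library lay above each starved library. The MRPL genes summed to 4072 ± 163 TPM with DMA, 3898 ± 109 TPM with C646, 4151 ± 115 TPM with solvent and 3289 ± 116 TPM in starved cells (mean ± SD, n = 3 each). The MRPS genes summed to 1986 ± 82.9, 1815 ± 34.1, 1970 ± 68.0 and 1810 ± 87.0 TPM in the same groups. The C646 and the solvent libraries each overlapped the starved libraries in the MRPS sum but not in the MRPL sum. Solvent library 2 had an MRPS sum of 1903 TPM and starved library 3 one of 1909 TPM. The DMA libraries overlapped the starved ones in neither sum. The ratio of the MRPL to the MRPS sum was 2.00 to 2.14 with DMA, 2.09 to 2.25 with C646, 2.05 to 2.16 with solvent and 1.79 to 1.85 in starved cells, with every refed library above every starved one. These sums weigh abundant members most and were not tested.

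**Figure D1:**
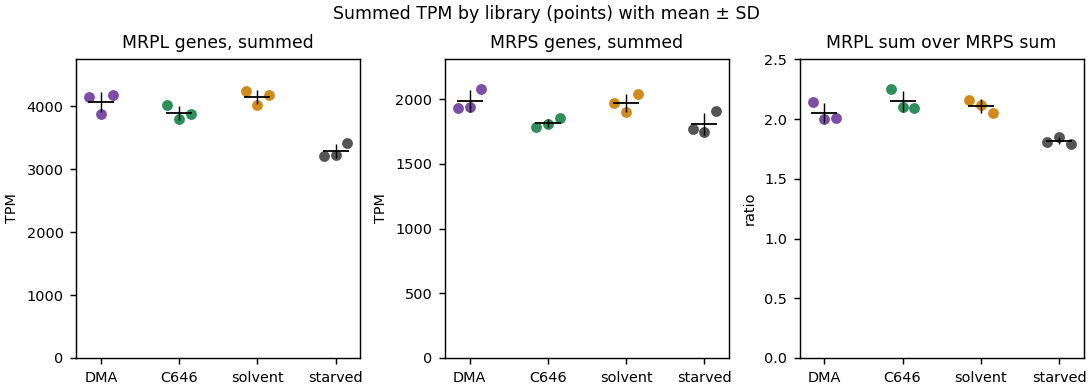
Summed TPM of the 49 MRPL genes (left) and the 29 MRPS genes (middle) and their ratio (right) for each library of the DMA, C646, solvent and starved groups, with mean ± SD. The MRPL sum was 3213 to 3422 TPM in starved libraries and at least 3801 TPM in each refed library, and the ratio separated refed from starved libraries.

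Refeeding with solvent, set against starvation, asks what the return of serum and glucose does to these genes within 4 h. The solvent group also received DMSO and fresh medium, whose parts cannot be told apart from those of serum and glucose. More members rose than fell. Of the 78, 22 were called higher and 2 lower at an adjusted p below 0.05 (edgeR quasi-likelihood test, Benjamini-Hochberg over all genes tested), against 12.6% of all genes called higher and 11.7% called lower. The shares of members were 28.2% higher and 2.56% lower. The median log2 fold change of the members was 0.22 and that of all genes 0.00, and 59 of 78 members (75.6%) lay above 0, against 50.2% of all genes.

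The large subunit carried most of the calls. Of 49 MRPL genes, 17 were called higher and 1 lower, with a median log2 fold change of 0.27. Of 29 MRPS genes, 5 were called higher and 1 lower, with a median of 0.13. The difference between the subunits was not tested. The proteins of MRPS30 and MRPS18A sit in the large subunit despite their symbols, and MRPS36 belongs to the alpha-ketoglutarate dehydrogenase complex. Placed by protein, 17 of 51 large subunit genes and 5 of 26 small subunit genes were called higher, with medians of 0.26 and 0.17.

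**Figure D2:**
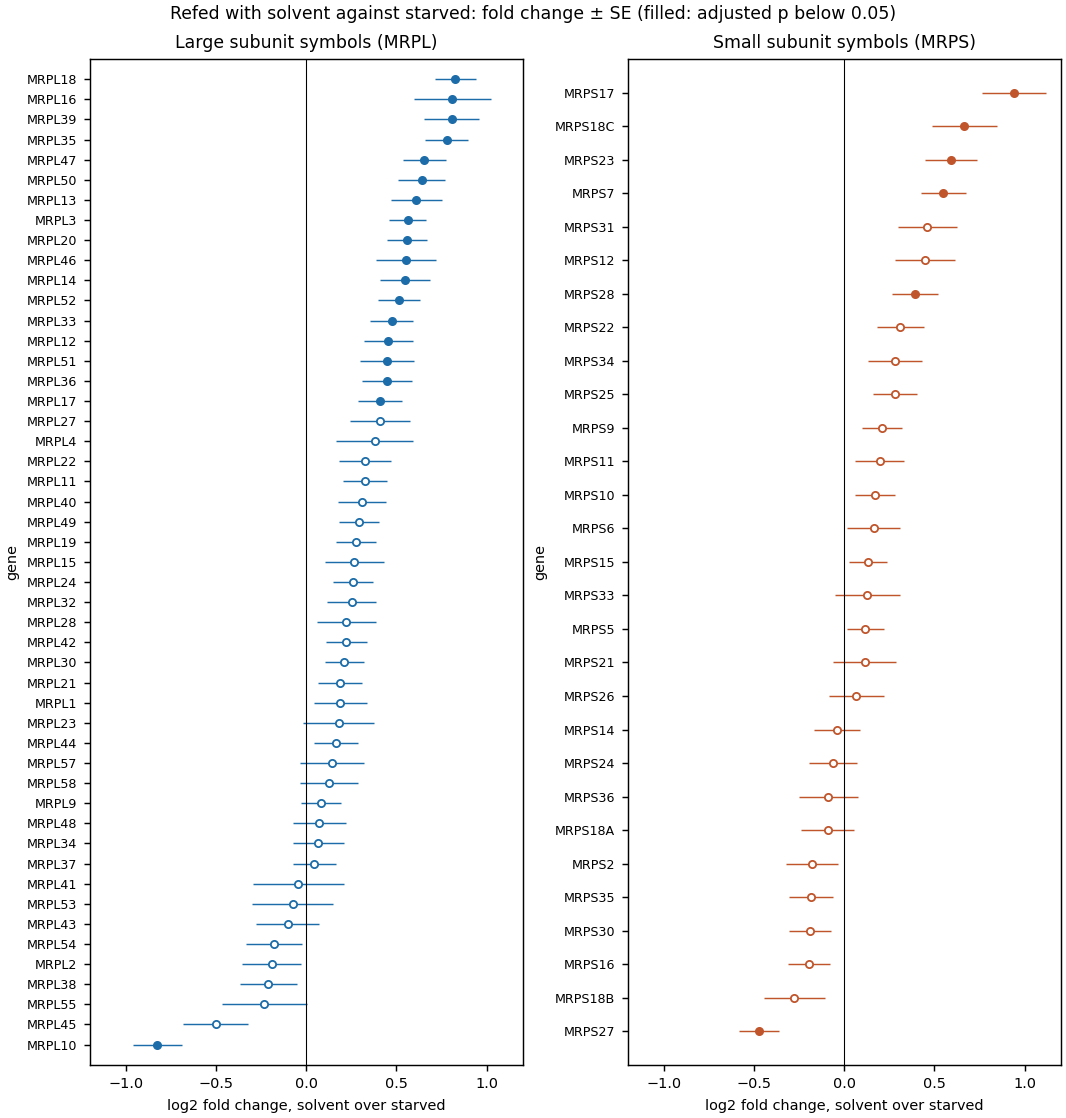
Log2 fold change ± SE of each MRPL gene (left) and each MRPS gene (right) in refed cells with solvent over starved cells, sorted by size, with filled points for genes at an adjusted p below 0.05. Changes ran from -0.82 (MRPL10) to 0.83 (MRPL18) in the large subunit and from -0.47 (MRPS27) to 0.94 (MRPS17) in the small subunit.

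MRPL18, a large subunit protein of which a form made in the cytosol has been described in heat-shocked cells, rose most among the MRPL genes. It measured 75.9, 76.3 and 71.0 CPM in solvent libraries, against 42.1, 42.0 and 41.7 CPM in starved libraries. CPM are counts relative to a library size that was scaled with trimmed means of M-values (TMM). The groups were far apart, and MRPL18 rose by 0.83 ± 0.11 (log2, SE, adjusted p = 0.000298).

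MRPL16, near the peptidyl transferase centre, measured 26.8, 22.4 and 23.5 CPM in solvent libraries, against 13.1, 11.3 and 17.2 CPM in starved libraries. The groups did not overlap, and MRPL16 rose by 0.81 ± 0.21 (adjusted p = 0.0144), a call that was lost on leaving out number 1 or 2 of the starved libraries or number 1 of the solvent libraries (highest adjusted p = 0.0736). MRPL39, a protein without bacterial counterpart, measured 29.7, 27.6 and 27.8 CPM in solvent libraries, against 15.7, 13.8 and 19.3 CPM in starved libraries. It rose by 0.81 ± 0.15 (adjusted p = 0.00215) with no overlap. MRPL35, a homologue of a bacterial large subunit protein, measured 44.0, 39.6 and 36.3 CPM in solvent libraries, against 23.2, 21.3 and 25.4 CPM in starved libraries. All solvent libraries were higher, and MRPL35 rose by 0.78 ± 0.12 (adjusted p = 0.000586).

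The remaining rises in the large subunit were smaller. MRPL47 rose by 0.66, MRPL50 by 0.64 and MRPL13 by 0.61. MRPL3, which reaches towards the peptidyl transferase centre, rose by 0.56, with 151, 129 and 138 CPM in solvent libraries against 95.2, 86.1 and 102 CPM in starved libraries. MRPL20 rose by 0.56, MRPL46 by 0.55, MRPL14 by 0.55 and MRPL52 by 0.51. MRPL33, MRPL12, MRPL51, MRPL36 and MRPL17 rose by 0.41 to 0.47. In MRPL51 the libraries of the groups overlapped, since starved library 3 had 109 CPM and solvent library 3 had 108 CPM. The share of all called genes without overlap was not counted, so a lack of overlap is not evidence beyond the call.

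In the small subunit MRPS17 rose most. It measured 32.9, 33.4 and 41.2 CPM in solvent libraries, against 18.8, 15.2 and 22.0 CPM in starved libraries. The groups did not overlap, and MRPS17 rose by 0.94 ± 0.18 (adjusted p = 0.00204), although 40.0% of its 31-base sequences recur in other genes, mainly in AC092647.5. MRPS7, an RNA-binding protein of the head of the subunit, measured 65.8, 69.2 and 65.3 CPM in solvent libraries, against 45.0, 40.6 and 51.6 CPM in starved libraries, and rose by 0.55 ± 0.12 (adjusted p = 0.00655). MRPS18C rose by 0.67, MRPS23 by 0.59 and MRPS28 by 0.39, each without overlap. Reads of MRPS28 are uncertain, because 35.8% of its exons overlap AC036214.3 on the same strand.

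The paralogues of the MRPS18 family differed in sign. MRPS18C was called higher, whereas the log2 fold change was -0.28 for MRPS18B and -0.09 for MRPS18A, neither past the threshold. Each paralogue occupies a place of its own in the ribosome. Reads of MRPS18C and MRPS18A are uncertain, because 40.2% and 47.0% of their exons overlap ABRAXAS1 and RSPH9 on the opposite strand. The kit was stranded, but the strand setting of the quantifier is not given.

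MRPL10 went down, against most of the family. MRPL10 anchors the lateral stalk that recruits translation factors, MRPL12 forms the mobile part of that stalk and MRPL11 lies at its base. MRPL10 measured 43.1, 46.5 and 50.7 CPM in solvent libraries, against 74.1, 87.1 and 87.2 CPM in starved libraries. Every solvent library was lower, and MRPL10 fell by 0.82 on the log2 scale (SE 0.13, adjusted p = 0.000817). MRPL12 measured 50.5, 53.1 and 56.3 CPM in solvent libraries, against 40.0, 37.8 and 38.8 CPM in starved libraries. It rose by 0.46 ± 0.14 (adjusted p = 0.0271), and 68.2% of its exons are shared with the readthrough gene AC139530.2. MRPL11 had a log2 fold change of 0.33 and did not pass the threshold.

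MRPS27, a pentatricopeptide repeat protein of the small subunit, measured 140, 119 and 134 CPM in solvent libraries, against 181, 171 and 193 CPM in starved libraries. The groups did not overlap, and MRPS27 fell by 0.47 (SE 0.11, adjusted p = 0.00895). Scaling to the spike-in counts put the median of all genes at 0.60, but the labels give neither the spike-in mix nor the amount added to each library. With it the log2 fold change of MRPS27 turned to 0.09, while that of MRPL10 stayed below 0 at -0.23 and no longer passed the threshold.

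**Figure D3:**
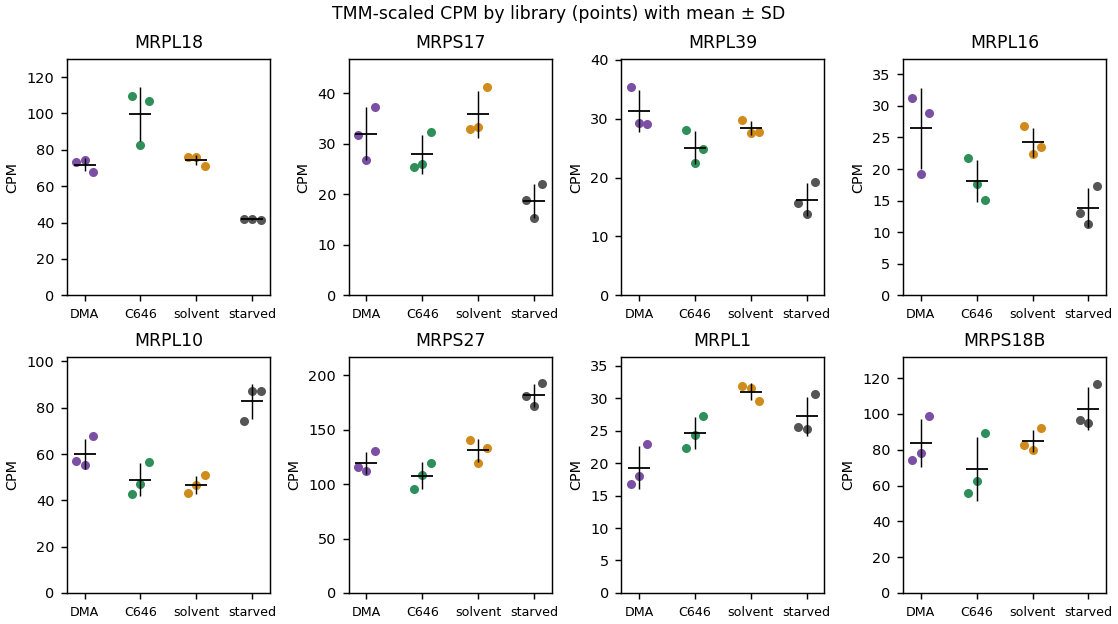
TMM-scaled CPM of 8 members in each DMA, C646, solvent and starved library, with mean ± SD. MRPL18, MRPS17, MRPL39 and MRPL16 are higher in solvent than in starved libraries, and MRPL10 and MRPS27 are lower. The mean of MRPL1 is lowest with DMA, whose libraries overlap those with C646. The mean of MRPS18B is lowest with C646, whose libraries overlap those with DMA and with solvent.

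Besides MRPL11, MRPS18A and MRPS18B, the following members of a panel chosen for their roles were not called with solvent. MRPS12, a protein of the decoding centre, had a log2 fold change of 0.45, MRPS22 of 0.31 and MRPS34 of 0.28. MRPL44, which resembles ribonuclease III, had 0.17, and MRPL58, a peptidyl-tRNA hydrolase that became part of the ribosome, had 0.13. MRPS16, MRPS30 and MRPS36 had -0.19, -0.19 and -0.09.

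Of the 24 calls, 13 held when any 1 of the 6 libraries of the comparison was left out, among them MRPL18, MRPL39, MRPL35, MRPL10, MRPS17, MRPS7 and MRPS27. Leaving out starved library 1 gave 15 calls and leaving out starved library 2 gave 14. The share of all genes called in these smaller fits was not counted, so the drop cannot be read as particular to the members. Of the 24, 6 concern genes whose reads are uncertain.

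The promoter motifs were also counted in the members that rose and in the rest. Of 19 risen members with a promoter window, 9 held an ETS site, against 20 of the 50 other members. A YY1 site was in 8 of the 19, against 15 of 50, and an NRF1 site in 3 of 19, against 5 of 50. The GC box was in 9 of 19, against 33 of 50, the CCAAT box in 6 against 14, the E-box and the heat shock element each in 2 against 4, and the amino acid response element in 0 against 1. These counts are a description and were not tested.

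Refeeding in the presence of an inhibitor was also set against starvation. These 2 comparisons share the starved libraries with the one above, so their likeness is not independent evidence. With DMA, 23 members were called higher and 4 lower than in starved cells, against 13.9% and 13% of all genes, with a median of 0.24 (all genes 0.00). With C646, 13 were called higher and 5 lower, against 12.9% and 11.7% of all genes, with a median of 0.10 (all genes 0.01). Of the 27 calls with DMA, 13 held when any 1 library of the comparison was left out, and of the 18 with C646, 5 held. Reads are uncertain for 6 of the 27 and for 3 of the 18. The DMA count was 17 without starved library 2. The C646 count was 10 without starved library 1, 9 without starved library 2 and 8 without C646 library 1. Here too the share of all genes called in the smaller fits was not counted.

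With DMA, 15 of 49 MRPL genes (30.6%) and 8 of 29 MRPS genes (27.6%) were called higher. Placed by protein, the shares were 29.4% and 30.8%. MRPL39 rose by 0.95 ± 0.15, to 35.4, 29.4 and 29.1 CPM in DMA libraries, against 15.7, 13.8 and 19.3 CPM in starved libraries. MRPL16 rose by 0.94, MRPS12 by 0.82, MRPS17 by 0.78, MRPL18 by 0.78, MRPL13 by 0.71, MRPL52 by 0.69, MRPL36 by 0.67, MRPL4 by 0.66 and MRPL47 by 0.63. MRPS12 measured 45.0, 35.0 and 42.6 CPM in DMA libraries, against 23.7, 23.3 and 22.4 CPM in starved libraries. Its adjusted p was 0.00302, and the groups did not overlap. MRPS7 rose by 0.55, MRPS34 by 0.53, MRPS18C by 0.58 and MRPL3 by 0.39. Reads of MRPL4 are uncertain, because 21.35% of its exons overlap other genes on the opposite strand.

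The 4 members lower with DMA than in starved cells were MRPS27, MRPL1, MRPL10 and MRPS16. MRPS27 fell by 0.60, MRPL1 by 0.49, MRPL10 by 0.46 and MRPS16, a conserved protein of the small subunit, by 0.44. MRPS16 measured 111, 103 and 119 CPM in DMA libraries, against 153, 144 and 155 CPM in starved libraries. The groups were apart, but the adjusted p of 0.0139 became 0.0572 without DMA library 2. Scaled to the spike-in counts, all 4 had log2 fold changes above 0, from 0.21 to 0.37.

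With C646, 8 of 49 MRPL genes (16.3%) and 5 of 29 MRPS genes (17.2%) were called higher. MRPL18 had the largest change of any member in any comparison. It measured 109, 82.8 and 107 CPM in C646 libraries, against 42.1, 42.0 and 41.7 CPM in starved libraries, and rose by 1.25 ± 0.12 (adjusted p = 1.61e-05). MRPL39 rose by 0.63, MRPS12 by 0.60, MRPS17 by 0.58, MRPS18C by 0.57, MRPL14 by 0.54, MRPL52 by 0.52, MRPL35 by 0.50, MRPL47 by 0.49 and MRPS6 by 0.49. MRPS7 rose by 0.37 (adjusted p = 0.0468), with an overlap between the groups.

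The 5 members lower with C646 than in starved cells were MRPL10, which fell by 0.76, MRPS27 by 0.75, MRPL45 by 0.57, MRPS18B by 0.57 and MRPS35 by 0.41. MRPS18B measured 56.0, 62.5 and 89.2 CPM in C646 libraries, against 96.8, 95.1 and 117 CPM in starved libraries. The groups did not overlap, although C646 library 3 came close (adjusted p = 0.0256, and 0.108 without C646 library 1). MRPL45, which lies near the exit of the peptide tunnel, is uncertain because 23.0% of its 31-base sequences recur, mainly in a pseudogene. Scaled to the spike-in counts, MRPS35, MRPS18B and MRPL45 had 0.30, 0.16 and 0.13, and MRPS27 and MRPL10 had -0.02 and -0.04.

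Across the 3 refed groups, 10 members were called higher than in starved cells each time. They were MRPL14, MRPL18, MRPL20, MRPL35, MRPL39, MRPL47, MRPL52, MRPS7, MRPS17 and MRPS18C. They are 12.8% of the members, against 6.37% of all genes tested. MRPL10 and MRPS27 were called lower each time, which is 2.56% of the members, against 6.25% of all genes. Without each library in turn, MRPL18, MRPL35, MRPL52 and MRPS27 were called in all 3 comparisons. In other settings apart from spike-in scaling, the calls of MRPL14, MRPL20, MRPL52, MRPS7 and MRPS18C were lost in at least 1 comparison. In all, 34 members (43.6%) were called in at least 1 of these comparisons, against 40.1% of all genes, and 44 (56.4%) in none, against 59.9%.

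The comparisons with solvent ask what each inhibitor changes during refeeding. With DMA, 1 member passed the threshold. None was called higher and 1 lower, against 0.734% and 1.02% of all genes, and the median log2 fold change was 0.02 (all genes 0.01), with 41 of 78 members above 0. The MRPL median was 0.06 and the MRPS median -0.03. At an unadjusted p below 0.05 there were 10 members, against 19.4% of all genes, and DESeq2 called 3, against 7.2% of the genes to which it gave an adjusted p.

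The gene called was MRPL1, a protein of the stalk at the tRNA exit side. It measured 16.8, 18.1 and 23.0 CPM in DMA libraries, against 31.8, 31.6 and 29.5 CPM in solvent libraries. The groups did not overlap, and MRPL1 fell by 0.68 (SE 0.15, adjusted p = 0.0378). The call missed the threshold without any of solvent libraries 1 to 3, without DMA library 1 or without DMA library 2 (highest adjusted p = 0.155), and the smallest fall in these was 0.60.

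The fall of MRPL1 was uneven over its transcripts. MRPL1-202, a shorter protein-coding transcript, had 2.12, 3.90 and 4.45 CPM in DMA libraries, against 16.0, 10.5 and 11.7 CPM in solvent libraries. MRPL1-203, annotated as a processed transcript, had 0.752, 1.81 and 3.19 CPM in DMA libraries, against 7.34, 6.41 and 6.19 CPM in solvent libraries. Both were lower in every DMA library than in any solvent library. MRPL1-201, the longer protein-coding transcript, had 12.7, 11.3 and 14.96 CPM in DMA libraries, against 4.48, 12.5 and 9.16 CPM in solvent libraries, so the groups overlapped. Its share of the MRPL1 TPM was 42.2% ± 8.51 with DMA, 25.2% ± 1.69 with C646, 12.1% ± 6.21 with solvent and 26.2% ± 5.49 in starved cells (SD, n = 3 each). These are estimates of a quantifier that divides reads among transcripts, and the differences between transcripts were not tested.

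**Figure D4:**
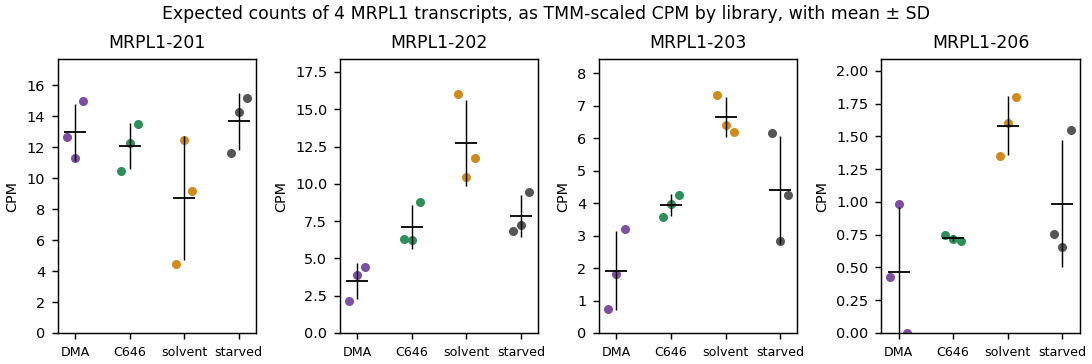
Expected counts of 4 MRPL1 transcripts as TMM-scaled CPM in each DMA, C646, solvent and starved library, with mean ± SD. The means of MRPL1-202 and MRPL1-203 are lowest with DMA and highest with solvent, while MRPL1-201 overlaps between all groups.

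With C646, no member passed the threshold and most had a log2 fold change below 0. None was called in either direction by edgeR, against 0.812% of all genes called higher and 0.4% lower, while 14 had an unadjusted p below 0.05, against 16.8% of all genes. DESeq2 called 2, against 6.07% of the genes with an adjusted p. The median was -0.14 (all genes 0.01), and 17 of 78 members (21.8%) lay above 0, against 51.4% of all genes. In the MRPS genes, 3 of 29 lay above 0 (median -0.18), and in the MRPL genes 14 of 49 (median -0.13). The largest values were 0.42 for MRPL18 and 0.41 for MRPL41 upwards, and -0.49 for MRPL46 and -0.42 for MRPL16 downwards (adjusted p = 0.0809, 0.445, 0.159 and 0.338).

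MRPL18 measured 109, 82.8 and 107 CPM in C646 libraries, against 75.9, 76.3 and 71.0 CPM in solvent libraries. All C646 libraries were higher, 1 of them by little. The next comparison called it between the inhibitors.

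DMA set against C646 gave no member higher and 1 lower, against 0.943% and 1.95% of all genes, with a median of 0.14 (all genes 0.00). Of the 78, 67 (85.9%) lay above 0, against 50.5% of all genes, and among the MRPS genes 27 of 29. At an unadjusted p below 0.05 there were 13 members, against 17.4% of all genes. The gene called was MRPL18, with 73.1, 74.7 and 67.7 CPM in DMA libraries, against 109, 82.8 and 107 CPM in C646 libraries. The groups did not overlap, and MRPL18 was lower with DMA by a log2 fold change of -0.47 (SE 0.11, adjusted p = 0.0418). The adjusted p was 0.168 without C646 library 1.

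**Figure D5:**
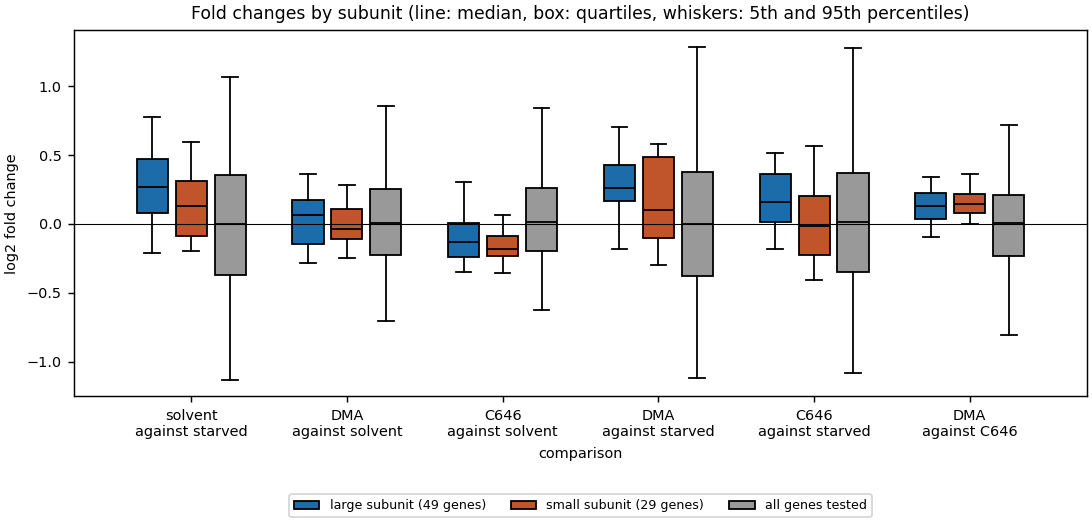
Log2 fold changes of the 49 MRPL genes, the 29 MRPS genes and all 15263 genes tested in the 6 comparisons, as boxes with median, quartiles and whiskers at the 5th and 95th percentiles. The member medians lie above 0 against starved cells, except for the MRPS genes with C646 (-0.01), and below 0 for C646 against solvent.

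The numbers of the libraries paired the 3 refed groups, so these comparisons were also fitted with the replicate number as a block. For DMA against solvent the block gave 1 member higher and 3 lower, against 4.76% and 5.46% of all genes. They were MRPL10 (log2 fold change 0.36), and MRPL1, MRPL30 and MRPS25 (-0.70, -0.37 and -0.44, adjusted p = 0.00633, 0.0221 and 0.0286). For C646 against solvent it gave 1 higher and 3 lower, against 4.12% and 3.73% of all genes. They were MRPL18 (0.42, adjusted p = 0.0316), and MRPL3, MRPL30 and MRPS23 (-0.40, -0.32 and -0.39). For DMA against C646 it gave 1 higher, MRPS11 (0.37), and 1 lower, MRPL18 (-0.47, adjusted p = 0.0153), against 3.96% and 5.85% of all genes. The inhibitor groups also paired with the starved group. With the block, 29 members were higher and 6 lower for DMA against starved cells, against 19.2% and 19.5% of all genes, and 15 higher and 7 lower for C646 against starved cells, against 18.4% and 17.8%. Without solvent library 1 the block gave 1 call for DMA against solvent and 0 for C646 against solvent.

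Some members start near a gene on the opposite strand. Of the 78, 29 have a protein-coding gene there whose start lies within 1000 bases, and 28 of these neighbours were tested. Starts here are the outermost ends of the GENCODE genes. The RefSeq windows of some of these members, such as MRPS22 and MRPL11, lie elsewhere, so a shared promoter region is not shown. The share of all genes with such a neighbour was not counted. MRPL46 and MRPS11 are neighbours of each other, which leaves 27 distinct pairs, and with solvent against starved cells the log2 fold changes of 16 of the 27 pairs had the same sign. MRPL18 and TCP1, a subunit of the cytosolic chaperonin, start 63 bases apart. TCP1 measured 421, 431 and 370 CPM in solvent libraries, against 167, 201 and 225 CPM in starved libraries, and rose by 1.04 (adjusted p = 0.000160). Both genes of this pair were higher in every refed library than in any starved one. With C646 against solvent, TCP1 had a log2 fold change of 0.06 and MRPL18 of 0.42, neither past the threshold without the block.

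Other pairs had unlike values. MRPL46 and MRPS11, both ribosomal, start 34 bases apart, and the log2 fold changes with solvent were 0.55 (called) and 0.20 (not called). TWNK, the mitochondrial DNA helicase, rose by 0.71 beside MRPL43 with -0.10. NCAPD2, a condensin subunit, fell by 1.06 beside MRPL51 with 0.45, and 31.3% of the MRPL51 exons overlap NCAPD2 on the opposite strand. The difference within pairs was not tested.

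Transcript annotation adds a limit to levels in TPM. For 62 members the transcript with the highest mean TPM was protein-coding, and for 16 it was of another type, among them MRPL43, MRPS14, MRPS16, MRPS18C and MRPS36. In MRPS36 a short processed transcript took 75.2% ± 3.39 of the TPM with solvent and 72.9% ± 3.75 in starved cells. The leading transcript held over 90% of the TPM in 20 members and under 50% in 18.

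The other genes of the pathway came from lists of known roles, counted by the same test. With solvent against starved cells, 12.6% of all genes were called higher and 11.7% lower, the shares to set beside each count below. Differences of the lists from these shares were not tested. Of 5 mitochondrial ribosomal proteins with other symbols, 1 was higher with solvent than in starved cells, CHCHD1 by 0.52. Of 28 assembly factors, 7 were higher and 3 lower. MTERF3 and FASTKD2 rose by 0.84 and 0.83, and NOA1, a GTPase needed for the small subunit, fell by 1.08 and RPUSD4, a pseudouridine synthase, by 0.67. Of 16 translation factors and messenger RNA chaperones, 1 was higher, SLIRP by 0.59, and 2 lower, C12orf65 by 0.55 and LRPPRC by 0.33. SLIRP and LRPPRC form a complex that stabilises mitochondrial messages, and under TMM scaling they changed in opposite directions. Scaling to the spike-in counts put the median of all genes at 0.60. Values of the list genes under that scaling are not given here, so the direction of small falls is open.

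Among these lists, that of mitochondrial DNA expression and maintenance had the highest share of calls with solvent. Of 17 genes, 11 were higher and 1 lower with solvent, against 12.6% and 11.7% of all genes, with a median of 0.45. TRMT10C, a subunit of mitochondrial RNase P, rose by 1.29 and TEFM, the transcription elongation factor, by 1.07, while SUPV3L1, an RNA helicase, fell by 0.52. Of 20 mitochondrial tRNA charging enzymes, 3 were higher and 1 lower, with MARS2 up by 1.28 and WARS2 down (log2 fold change -1.02). None of 8 tested regulators, which include NRF1, GABPA, MYC and YY1, passed the threshold with solvent. Of 38 nuclear complex I subunits 5 were higher and none lower (median 0.22). Of 87 cytosolic ribosomal protein genes 1 was higher and none lower (median -0.05). In the comparison of C646 with solvent, 36 of these 87 and 16 of the 38 complex I subunits lay above 0. So did 2 of the 17 genes of mitochondrial DNA expression and maintenance, 2 of the 20 tRNA charging enzymes and 5 of the 28 assembly factors. Between DMA and C646 the numbers above 0 were 81 of 87, 31 of 38, 11 of 17, 12 of 20 and 19 of 28.

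The messages of the mitochondrial genome, which mitochondrial ribosomes translate, were called lower only in comparisons of an inhibitor group with solvent or starved cells. None of the 13 was called with solvent against starved cells (median -0.02). With DMA against solvent 2 were lower, where 1.02% of all genes were. They were MT-CYB with a log2 fold change of -0.87 and MT-ND3 with -0.67 (median of the 13, -0.67). With C646 against solvent 1 was lower, MT-ND3 (-0.67, median -0.47), where 0.4% of all genes were. With DMA against starved cells 8 of 13 were lower (median -0.69), where 13% of all genes were. With C646 against starved cells 3 of 13 were lower (median -0.41), where 11.7% of all genes were. The replicate block gave 5 lower for DMA and 4 for C646 against solvent, where 5.46% and 3.73% of all genes were lower. Against starved cells it gave 9 for DMA and 4 for C646, where 19.5% and 17.8% of all genes were lower. Starved library 3 stood apart with 4.14% of its counts from these messages, against 2.39% and 2.49% in the other starved libraries. Without it, 1 of 13 was lower with DMA (median -0.34) and none with C646 (median -0.15). The share of all genes called lower in these smaller fits was not counted. Scaled to the spike-in counts, none was called lower and 1 higher with DMA against starved cells (median 0.12), none was called with C646 against starved cells (median 0.28), and none was called in the comparisons with solvent. The libraries were made from polyadenylated RNA, and the mitochondrial ribosomal RNAs were not analysed here.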

How the data were processed

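Per the labels' protocols, polyadenylated RNA of RPE-1 cells was sequenced with a stranded kit. The submitters' processing notes name Trimmomatic 0.36, STAR 2.7.0e and GRCh38.p10. Which program and annotation gave the estimates, and with which strand setting, is not given in the sources used here. Per the file headers, the authors deposited expected counts, TPM and effective lengths (another kind of value) for 182164 transcripts, of which 92 are spike-in sequences. Another 264 matched no GENCODE 29 transcript (0.0923% to 0.146% of counts) and were left out. Expected counts, where the design had assumed raw counts, were summed per gene and rounded. The depth was 14910516 to 28968510 counts per library.

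Genes were filtered (filterByExpr, minimum count 10, total 15), scaled by TMM and tested in 1 fit of 12 libraries with edgeR 4.0.16 (robust quasi-likelihood F-test, Benjamini-Hochberg over 15263 genes, threshold 0.05). The code was tested on simulated data. Deposited TPM, summed per gene, served for levels. The members and lists were chosen with earlier results of these data known. Named are the 10 largest called changes in each direction, a panel chosen for role, the 5 highest and lowest TPM and up to 2 calls per direction of each list; promoters, neighbours and transcripts were picked after values were seen. A member is uncertain where over 20% of its exons overlap another gene or over 20% of its 31-base sequences recur elsewhere. Library numbers pair groups where same-numbered deviations correlate above 0.1 in every pair: 0.28 to 0.48 among refed groups, 0.13 to 0.36 between inhibitor groups and starved cells, and 0.0957, 0.33 and 0.18 for solvent with starved cells, which misses the rule. Alternatives were DESeq2 1.42.0, its size factors, spike-in scaling, no and stricter filters, only the compared groups, the replicate block, a length offset and leaving out each library.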

Additional observations from a re-analysis of the deposited data

How the results depend on the processing

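Scaling to the spike-in counts, whose mix and amount per library the labels do not give, put the median of all genes at 0.60 for solvent, 0.81 for DMA and 0.73 for C646 against starved cells. The member medians became 0.81, 1.03 and 0.80, which is 0.21, 0.22 and 0.08 above all genes, and 0.23 for DMA against solvent, -0.030 for C646 against solvent and 0.23 for DMA against C646. Member calls, all higher, became 62 for DMA, 37 for C646 and 33 for solvent against starved cells, where 42.2%, 33.4% and 21.1% of all genes were called higher, and 0 for DMA against solvent and for DMA against C646. Its calls that turned were MRPS27 with solvent (0.093); MRPS27 (0.21), MRPL10 (0.34), MRPL1 (0.33) and MRPS16 (0.37) with DMA; and MRPS35 (0.30), MRPS18B (0.16) and MRPL45 (0.13) with C646, all against starved cells. The cause was not tested. With the replicate block, calls were 4 for DMA against solvent, 4 for C646 against solvent and 2 for DMA against C646 (2 also without solvent library 1). DESeq2 called 3, 2 and 1; only the compared groups gave 0 for DMA against solvent and DMA against C646, and a length offset 0 for DMA against C646. Leaving out 1 library gave 14 to 26 calls for solvent, 17 to 27 for DMA and 8 to 16 for C646 against starved cells, and 0 to 1 in each other comparison. Shares of all genes called were not counted for fits that left out a library, for only the compared groups or for the length offset. Nor were they counted for DESeq2 between the inhibitors, so these counts cannot be read as particular to the members. All 24, 27 and 18 calls against starved cells kept their direction outside spike-in scaling.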
